A study of Vitis vinifera with 54 samples.

Results

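A set of 70 grapevine genes had their lowest transcript level at the color transition of the berry in several vineyards, and they are described here across 6 ecological zones. They were chosen from the 25133 genes of the expression table by their own values. A gene was kept when its level at color transition lay at least 1 log2 unit below both the enlargement and the maturity level in at least 2 of the zones HJZ, ZHYS, CC, XG and XLS, and 7 genes were left out by name. The zone HSB had no part in that choice, so only its 9 libraries, and zones left out of the choice in turn, can test the pattern.

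The material was Chardonnay (Vitis vinifera), a white wine grape, grown in Ningxia, China, and the RNA came from berry flesh without skin or seeds. Berries were taken at the enlargement period (E, 40 days after early flowering), the color transition period (V, 80 days) and the maturity period (M, 120 days), which gave 18 groups of 3 libraries each and 54 libraries in all. Groups are named by stage and zone, so V-ZHYS is color transition in ZHYS and V-HSB, V-HJZ, V-CC, V-XG and V-XLS are the same stage elsewhere. All groups share 1 cultivar, and each zone is a single region sampled at fixed days, so zone, site and the state of ripeness on that day cannot be told apart.

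A grape berry grows in a first phase of cell division and cell enlargement, pauses, and at color transition (veraison in viticulture) softens, begins to store hexose sugars and starts a second phase of growth. Many genes of the green berry fall at that step for good, and many ripening genes rise at it and stay high. A gene that is low at color transition and higher on both sides follows neither course. In flesh sampled in bulk, fewer cells of a type and less RNA per cell cannot be told apart, and because the unit is relative within a library, a low level is low relative to the other transcripts.

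Levels are in TPM, the length-corrected share of a gene among all transcripts of its library, divided by 1 scaling factor per library, and are called scaled TPM. Differences are on the log2(scaled TPM + 1) scale, which understates the change of weakly expressed genes. The dip of a gene in a zone is the smaller of the differences E minus V and M minus V, so a positive dip means that V was lowest. A gene was called changed at an adjusted p under 0.05 (limma, Benjamini-Hochberg over the 24648 genes tested) and a change of more than 1 log2 unit in size. Whether the 3 libraries of a group came from separate vines is not given in the sources used here, so the p-values measure only the spread between these libraries.

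One library stood apart before any comparison. V-XLS replicate 2 correlated with the other libraries of its group at r = 0.948 and 0.963 over genes, where all other pairs within groups reached at least 0.977. Its median over the 70 genes was 2.38 on the log2 scale, against 3.49 and 3.41 in V-XLS replicates 1 and 3. In V-XLS replicate 2, 30 of the 70 genes lay at least 1 log2 unit below both the E-XLS and the M-XLS mean, against 0 in replicate 1 and 3 in replicate 3. Of all genes, 0.742% did so in replicate 2. Results for XLS are therefore given with and without it. The spread of each gene was estimated over all 18 groups. This library therefore also widens the SE of changes in HSB for the genes that it sets apart.

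The dip was strongest in ZHYS, XG and CC, weaker in HJZ, slight in XLS and missing in HSB. The 70 genes met the limit of the choice in ZHYS 52 times, in XG 46 times, in CC 36 times, in HJZ 15 times and in XLS 4 times (1.36%, 1.07%, 0.215%, 0.174% and 0.0203% of all genes met it there), which is what the genes were chosen on and is given as a description. No member met it in HSB, where 4 of all genes (0.0162%) did, so that count alone does not set the members apart. Most of the genes, 60 of 70, met it in 2 zones, 8 met it in 3, 1 in 4 and 1 in all 5. The commonest pair was ZHYS with XG, shared by 32 genes, followed by ZHYS with CC, shared by 26, and CC with XG, shared by 14.

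The typical size of the dip followed the same order. Its median over the 70 genes was 1.24 in ZHYS, 1.14 in XG, 1.02 in CC, 0.32 in HJZ and 0.13 in XLS, against -0.75 in HSB. Over all genes the median dip lay between -0.13 (XLS) and -0.09 (ZHYS) in these 5 zones. In HSB it was -0.23, so HSB was also lowest over all genes. V was the lowest stage, by any amount, in 66 of the genes in ZHYS, 64 in XG, 56 in CC, 43 in HJZ and 41 in XLS, but in 7 in HSB. Of all genes, 28.1%, 26.6%, 23.8%, 23.2% and 20.9% had V lowest in the first 5 of these zones. The share in HSB was not counted. All 3 V libraries lay below all E and M libraries for 61 genes in ZHYS (10.6% of all genes), 52 in XG (12.3%), 47 in CC (7.1%), 32 in HJZ (7.52%) and 13 in XLS (3.88%). Without V-XLS replicate 2, the median dip in XLS was -0.17 and 1 gene met the limit there, so in the other 2 V-XLS libraries the genes as a set were not lowest at color transition.

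With the scaling used here, the median fall to V was larger than the median recovery to M. The median change of V against E was -2.18 in ZHYS, -1.58 in XG, -1.38 in CC, -1.14 in HJZ and -0.98 in XLS. The median change of M against V was 1.29, 1.41, 1.08, 0.64 and 0.47 in the same zones. At maturity most of the genes remained below their enlargement level, in 58 genes in ZHYS, 46 in XLS, 43 in CC, 41 in HJZ and 39 in XG. The share of all genes that did so was not counted. The median level of all genes was also lower at M than at E in these zones. In ZHYS it was 2.33 to 2.36 at E and 2.01 to 2.04 at M on the log2 scale. The scaling factors differed between stages. They were 0.64 to 0.73 at E, 0.97 to 1.01 at V and 1.14 to 1.15 at M in HJZ. In CC they were 1.10 to 1.21, 0.77 to 0.78 and 0.87 to 0.93. Zone medians with the TPM as deposited are not given here, so these sizes hold for this scaling only. The zones also differed in where they started, since the median level of the 70 genes at enlargement was 4.76 in ZHYS and 3.58 in CC on the log2 scale, while at color transition it was 1.92 in ZHYS, 2.27 in CC and 2.45 in XG.

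**Figure D1:**
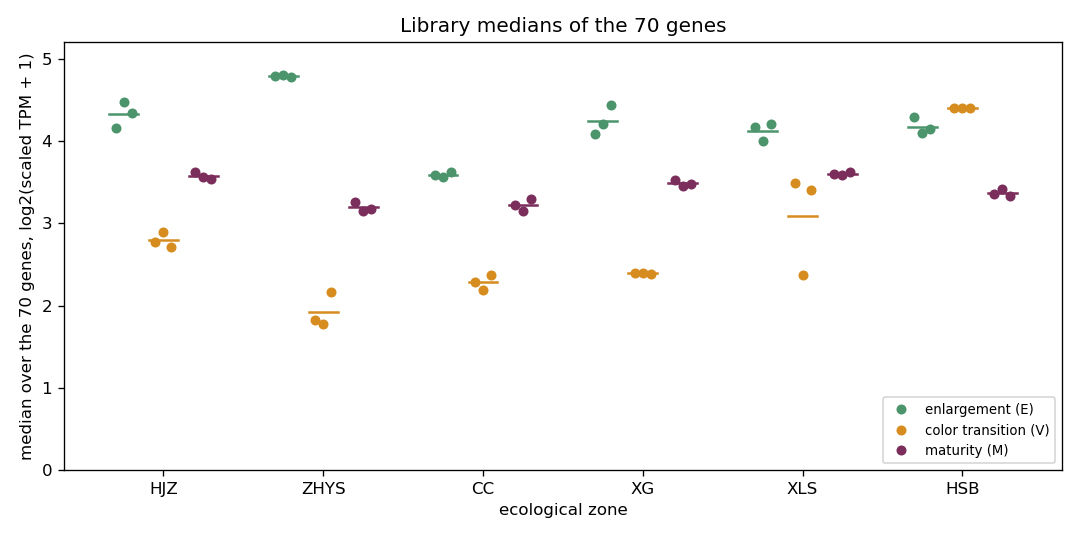
Median log2(scaled TPM + 1) over the 70 genes in each of 54 libraries, by zone (x axis) and stage (color), with a bar at the mean of each group of 3. The V libraries are lowest in HJZ, ZHYS, CC and XG, V-XLS replicate 2 (2.38) lies apart from the other V-XLS libraries (3.49 and 3.41), and the 3 V-HSB libraries (4.40, 4.41 and 4.41) lie above the E-HSB and M-HSB libraries.

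The genes were mostly of moderate abundance. Their mean deposited TPM over the 54 libraries lay between 1.27 and 501 with a median of 16.4, against 4.11 for all genes tested, and 42 of them averaged at least 10 TPM and 4 at least 100 TPM. A gene near 0 could not meet a limit of 1 log2 unit, so the higher level is in part set by the choice. By RefSeq, 67 are protein coding, and 3 have no entry there, and 61 were above 0 in every library. Only LOC100243643 and LOC100258773 carry a descriptive name there, so the other genes are given by their identifiers alone. The gene with the second-largest dip nearest above the limit was LOC100257373 at 1.005, then LOC100242847 at 1.01, and the nearest below it were LOC100263971 at 0.998 and LOC100258779 at 0.994, so the boundary of the set separates genes that hardly differ.

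**Figure D2:**
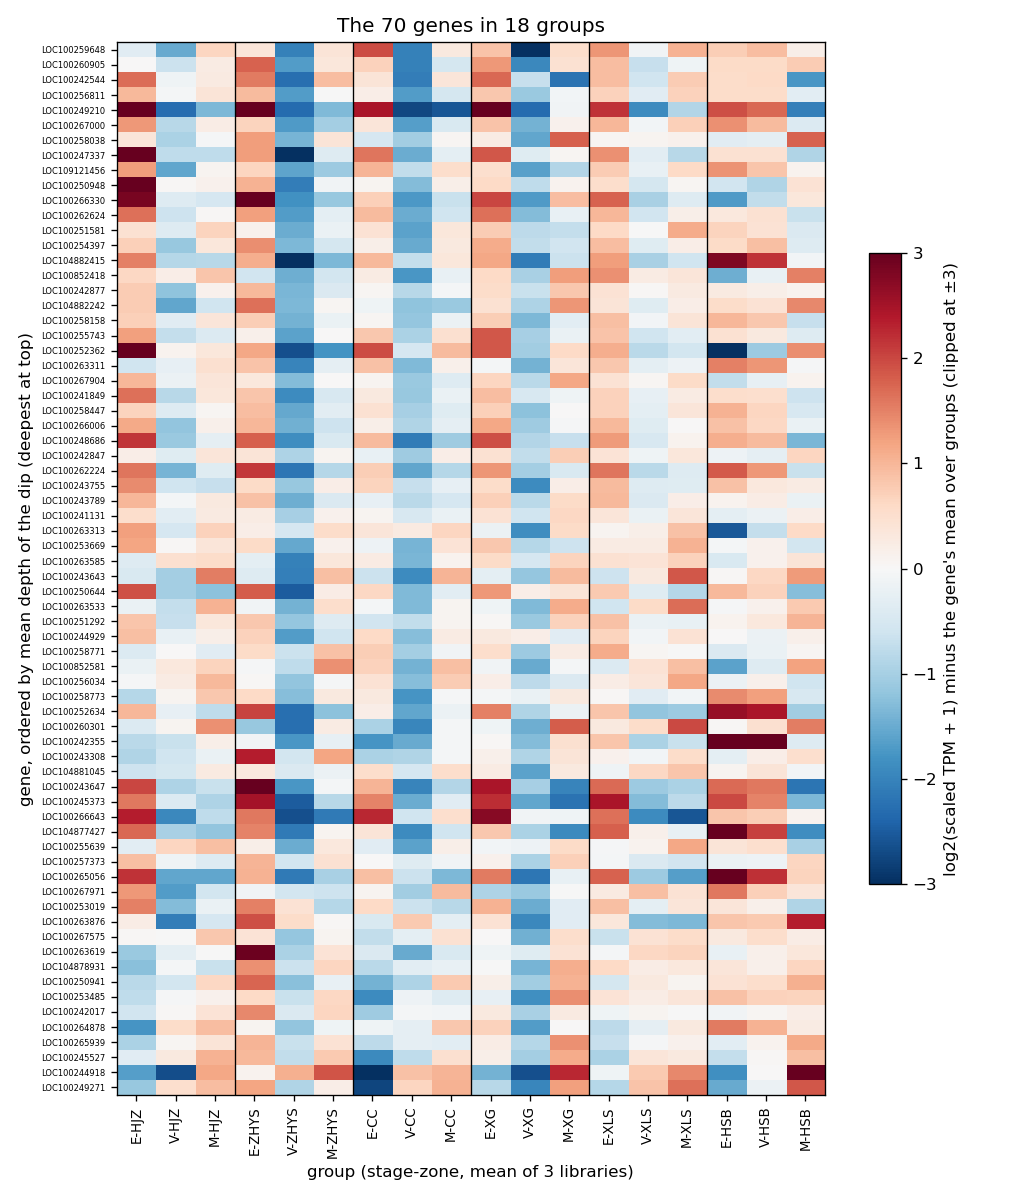
Mean log2(scaled TPM + 1) of each of the 70 genes (rows, deepest mean dip at the top) in the 18 groups (columns, E, V and M within each zone), after subtracting the gene's mean over groups, with blue below and red above that mean. The V columns of ZHYS, CC and XG are blue for most genes, while the V-HSB column resembles the E-HSB column beside it.

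The deepest dips belonged to genes whose level at color transition dropped to a small part of that at enlargement. LOC100259648 was the only gene to meet the limit in all 5 zones, with a mean dip of 2.15 over them. In XG it had 83.8, 65.9 and 61.9 scaled TPM at E, 1.74, 5.48 and 3.63 at V, and 55.9, 54.4 and 57.3 at M. In CC it had 149, 156 and 152 at E, 9.31, 6.87 and 10.1 at V, and 37.8, 52.0 and 53.9 at M. In both zones the stages did not overlap, and the V libraries were several times below any other.

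In HJZ, where the dip of most genes was small, LOC100259648 had 36.6, 37.8 and 19.7 scaled TPM at E, 13.0, 11.9 and 13.4 at V, and 59.0, 62.5 and 60.6 at M. In XLS its V libraries held 72.8, 5.69 and 98.8, so that the dip in that zone came from replicate 2 alone and the other 2 libraries overlapped those of E (93.3, 113 and 89.5) and lay close to those of M (79.7, 79.3 and 81.6). In HSB it had 76.3, 66.1 and 54.5 at E, 80.4, 69.9 and 72.4 at V, and 46.1, 49.4 and 35.8 at M. The V-HSB libraries overlapped those of E-HSB and lay above all M-HSB libraries. The log2 changes were 0.19 (SE 0.44, limma adjusted p = 0.852) for V against E and -0.76 (SE 0.44, adjusted p = 0.137) for M against V, neither past the threshold. Both SEs include the spread of V-XLS, where replicate 2 lay apart. The change of M against V was -1.28 with the TPM as deposited (limma adjusted p = 0.0167) and -1.06 after quantile normalization (adjusted p = 0.0350), and was then called.

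LOC100260905, second in mean depth at 1.42, was a weakly expressed gene that nearly vanished in 3 zones. It had 0.248, 0.273 and 0.102 scaled TPM in V-XG, against 7.09, 9.83 and 15.7 in E-XG. It had 0.181, 0.0649 and 0.179 in V-CC, against 4.72, 7.85 and 7.32 in E-CC. In V-XLS it was at 2.94, 0.0453 and 4.76, so replicate 2 had the lowest value of all 54 libraries. V-HSB, at 5.96, 6.79 and 5.02, overlapped E-HSB at 6.46, 6.31 and 5.13, and the change between them was -0.01 (SE 0.30).

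LOC100256811 met the limit in ZHYS, CC, XG and XLS. Its V-ZHYS libraries held 13.3, 12.6 and 13.8 scaled TPM, its V-CC libraries 13.5, 12.8 and 13.3, and its V-XG libraries 20.4, 17.9 and 21.5. Its E libraries in these zones ran between 48.0 in CC and 103 in ZHYS, and its M libraries between 28.5 in CC and 49.5 in ZHYS. V-XLS held 54.8, 12.8 and 59.6, so replicate 2 alone reached the level of V in ZHYS and CC. In HSB the gene had 61.1, 68.5 and 66.8 at E, 66.6, 67.2 and 62.9 at V, and 37.2, 33.6 and 36.3 at M, so that V overlapped E and M lay below both, with a log2 change of M against V of -0.86 (SE 0.24, limma adjusted p = 0.00188), under the size limit of 1. With the TPM as deposited the change was -1.38, and after quantile normalization -1.14, both then past the limit.

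Other deep dips did not return to the enlargement level. LOC100249210 had 88.1, 96.3 and 118 scaled TPM in E-XG, 0.973, 1.63 and 0.591 in V-XG, and 13.0, 3.30 and 12.6 in M-XG. Its recovery was thus a small part of its fall, and on the log scale both still passed the limit. LOC100247337 behaved alike in ZHYS, with 68.8, 253 and 104 in E-ZHYS, 0.727, 2.72 and 1.83 in V-ZHYS, and 27.6, 38.6 and 53.1 in M-ZHYS, and its replicates within a group differed by up to several times. LOC100242544 had 25.7, 24.7 and 23.9 in E-CC, 4.14, 3.13 and 3.73 in V-CC, and 29.1, 22.6 and 21.2 in M-CC, a full recovery in that zone, whereas in XG its M libraries (3.78, 3.61 and 2.33) lay below its V libraries (10.2, 9.06 and 14.6).

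LOC100267000 and LOC100258038 complete the 8 genes with the deepest mean dips. LOC100267000 had 1.04, 0.960 and 0.715 scaled TPM in V-CC, against 7.47, 6.49 and 6.12 in E-CC. LOC100258038 had 9.02, 19.7 and 7.43 in V-XG, against 40.6, 41.5 and 42.8 in E-XG, and 132, 114 and 121 in M-XG. In XG, LOC100258038 thus ended higher at maturity than it began.

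In HSB, 5 of these 8 genes were called at the late step (21.2% of all genes in either direction) and none at the early one (3.55% of all genes). LOC100258038 was higher at M than at V by 2.06 (SE 0.21, limma adjusted p = 4.67e-11), with 107, 139 and 116 scaled TPM in M-HSB, against 27.1, 29.2 and 28.0 in V-HSB. LOC100242544 was lower at M, by a log2 change of -2.35 (SE 0.28, adjusted p = 2.24e-09), as was LOC100267000 with a change of -1.37 (SE 0.30, adjusted p = 9.62e-05). For LOC100247337 the change was -1.36 (SE 0.53, adjusted p = 0.0244), and the call was lost when V-HSB or M-HSB replicate 1 or 3 was left out. The fifth was LOC100249210, described with the late falls in HSB.

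SWEET15 (LOC100243643) was the most abundant of the 70 genes, with a mean of 501 TPM. SWEET proteins are membrane uniporters that let sugars pass down their gradient out of cells or into the vacuole, and SWEET15 of Arabidopsis is known from seed filling and senescing leaves. In ZHYS it had 258, 222 and 304 scaled TPM at E, 95.1, 76.5 and 72.9 at V, and 711, 618 and 577 at M. In CC it had 238, 204 and 206 at E, 96.3, 86.6 and 92.9 at V, and 666, 693 and 711 at M. In these zones the transcript at V was lower than in any E library, and at M it was higher than in any of them.

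The same gene in the other zones showed how much the set varies. SWEET15 (LOC100243643) had 147, 134 and 173 scaled TPM in V-XG and 176, 166 and 162 in V-HJZ, the last group overlapping E-HJZ at 167, 278 and 330. V-XLS held 1131, 53.5 and 1166, so replicates 1 and 3 lay just under M-XLS (1196, 1286 and 1239) and replicate 2 had the lowest value of all. In HSB it had 348, 338 and 364 at E, 476, 536 and 559 at V, and 828, 808 and 851 at M. The HSB stages did not overlap and followed an ascending order. The test takes the spread of a gene from all groups, and for this gene that includes the wide V-XLS group. The changes of 0.58 for V against E (SE 0.50, limma adjusted p = 0.454) and 0.67 for M against V (SE 0.50, adjusted p = 0.257) did not pass it. That of 1.24 for M against E (SE 0.50, adjusted p = 0.0263) did.

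LOC100258773 is named RAMOSA3 in RefSeq, after the maize gene for a trehalose-6-phosphate phosphatase that limits branching of the inflorescence. Trehalose-6-phosphate is a signal of sucrose supply in plants, and such phosphatases remove it. The gene had 7.33, 10.1 and 11.3 scaled TPM in E-ZHYS, 2.09, 1.41 and 1.99 in V-ZHYS, and 7.76, 6.85 and 7.76 in M-ZHYS. In CC it had 6.37, 7.46 and 8.40 at E, 0.828, 0.805 and 1.51 at V, and 5.40, 5.15 and 6.804 at M. In HJZ, by contrast, E was the lowest stage (2.64, 3.51 and 2.38, against 6.77, 6.48 and 5.47 at V).

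In HSB, LOC100258773 (RAMOSA3) stood at its highest and fell only late. It had 22.4, 16.6 and 14.1 scaled TPM at E, 16.0, 16.4 and 13.2 at V, and 5.76, 2.67 and 3.87 at M. The V and E libraries overlapped, and the change of M against V was -1.70 (SE 0.19, limma adjusted p = 2.02e-10), with all M-HSB libraries below all V-HSB libraries.

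**Figure D3:**
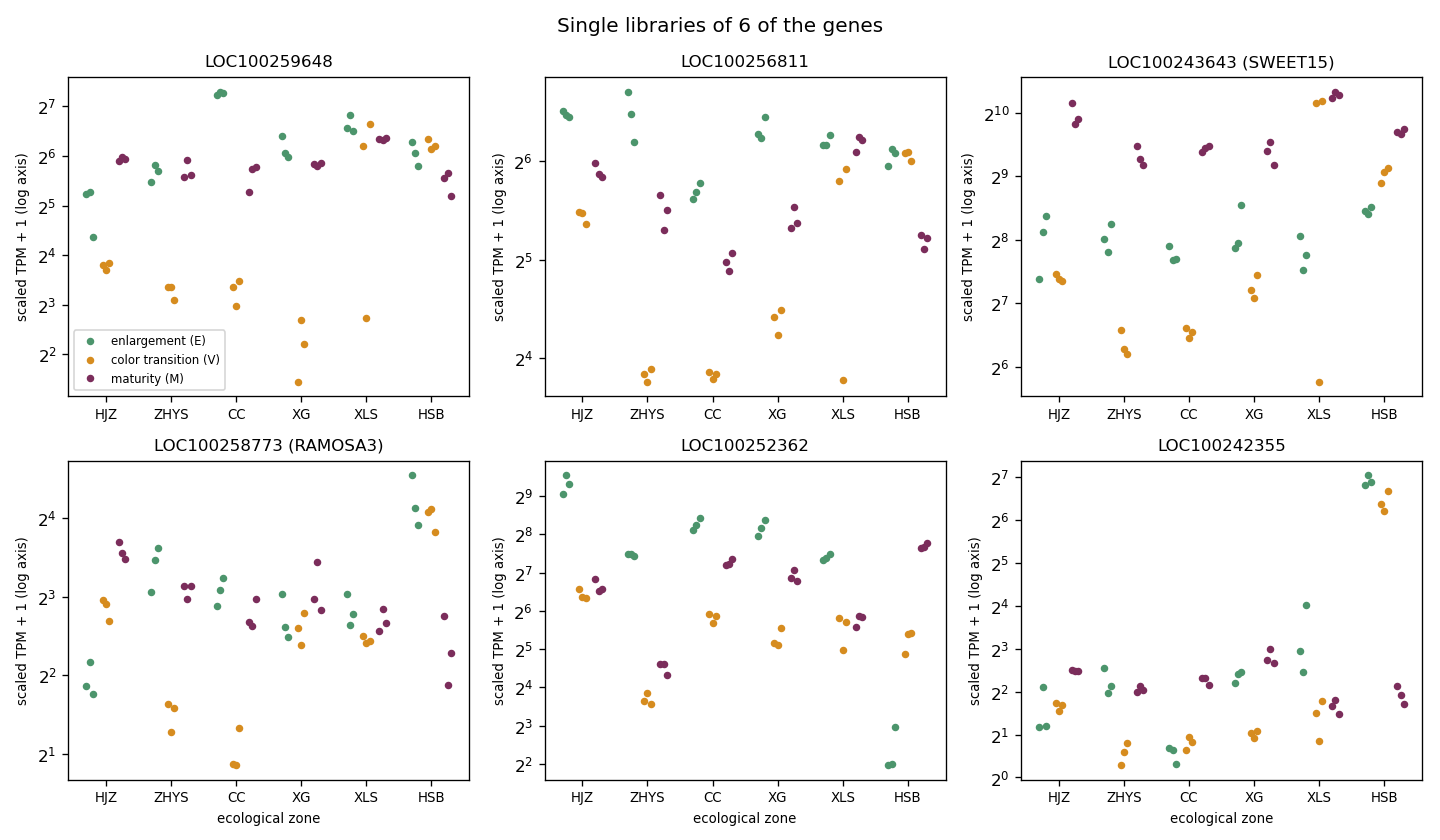
Scaled TPM + 1 (log axis) of 6 of the genes in every library, by zone and stage, with 3 points per group. LOC100259648, LOC100256811 and SWEET15 show V-XLS replicate 2 (5.69, 12.8 and 53.5 scaled TPM) apart from the other V-XLS libraries, and LOC100252362 and LOC100242355 show HSB on opposite sides of the other zones at enlargement.

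HSB can test the pattern, since its libraries chose no gene, but few genes of any kind fell there from E to V. Of all genes, 0.564% were called lower at V than at E in HSB, against 9.21% in XG to 11.9% in HJZ. HSB thus left little room for a dip in any gene, and the members were not tested apart from that. None of the 70 genes was called both lower at V than at E and higher at M than at V there, where 5 of all genes (0.0203%) were. The count of members by unadjusted p and by a fit of the HSB libraries alone was also 0. With so small a share of all genes, a count of 0 does not set the members apart. A single member, LOC104877427, was called lower at V than at E (0.564% of all genes). Called higher at V than at E were 6 members (2.99% of all genes), which makes 7 in either direction (3.55%). Without V-HSB replicate 3 these counts were 0 lower and 3 higher, and without E-HSB replicate 3 they were 1 lower and 4 higher. The median change of V against E over the 70 genes was -0.01, beside 0.00 over all genes tested, and 36 members lay below and 34 above 0.

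At any size of change, 12 of the 70 genes differed between V and E in HSB at an adjusted p under 0.05 (limma), against 26.3% of all genes, and 20 did so at an unadjusted p under 0.05. Most genes of either kind thus passed no test at that step. Among the V groups of the 6 zones, V-HSB had the highest mean for 42 of the 70 genes, against 32.3% of all genes. For 29 of the 70 every V-HSB library lay above every V library of the other 5 zones. The share of all genes that did so was not counted, so this number does not set the 70 genes apart. The low V levels of the other zones chose the genes, so a high rank of V-HSB is partly set by the choice. V libraries of HSB lay below all E-HSB and M-HSB libraries for 1 member (1.97% of all genes), LOC100244929, which had 29.8, 28.8 and 34.8 scaled TPM at E, 25.8, 26.6 and 27.9 at V, and 33.98, 34.42 and 33.34 at M, a dip of 0.21 log2 units.

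From V to M the HSB libraries moved in both directions, and more often down. Called lower at M than at V were 23 of the 70 genes (12.7% of all genes), and 12 were called higher (8.48%), together 35 (21.2%). The median change was -0.39, beside -0.00 over all genes tested. With the TPM as deposited the split was 32 lower and 7 higher, beside 4970 lower and 1039 higher of all genes, in place of 3130 and 2091. That scaling moved the median of all genes by -0.23, and the median of the 70 genes was -0.87, which is 0.64 below that of all genes.

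Between M and E in HSB, 25 of the 70 genes were called lower at M (16.1% of all genes) and 13 higher (13.7%). The median change over the 70 genes was -0.36. With the TPM as deposited, 33 were called lower at M and 9 higher, beside 6693 and 1885 of all genes in place of 3961 and 3374. In HSB, M was the lowest stage for 40 of the genes, E for 23 and V for 7. The shares of all genes with each stage lowest there were not counted.

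**Figure D4:**
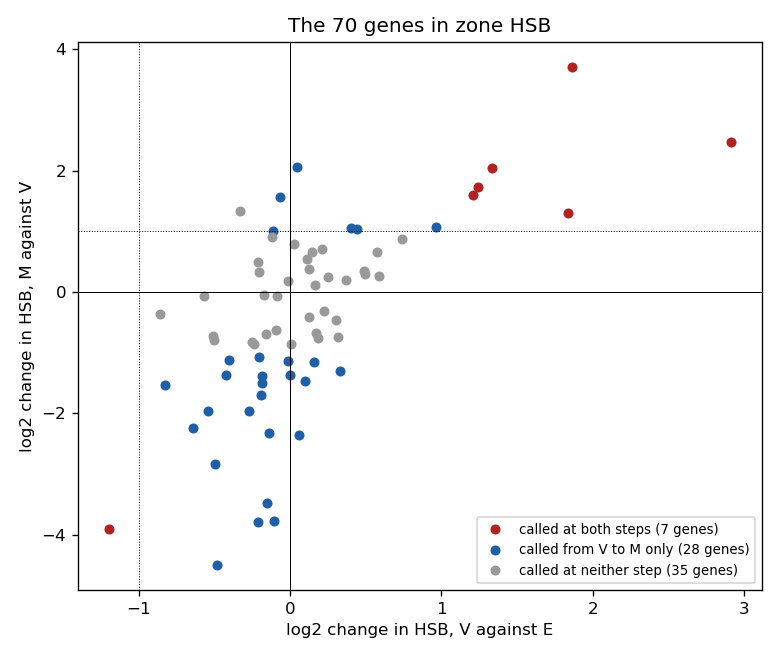
Log2 change of each of the 70 genes in HSB, V against E (x axis) and M against V (y axis), colored by the steps at which the gene was called, with dotted lines at the limits of -1 and 1. The quadrant of a dip (upper left, beyond both dotted lines) holds no gene, 28 genes were called at the second step alone, and the 7 genes called at both steps moved the same way each time.

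The 6 genes called higher at V than at E in HSB were all also called higher at M than at V, so they climbed at both steps. The largest rise was that of LOC100252362, one of the most abundant members with a mean of 130 TPM. In HSB it had 2.91, 3.03 and 6.82 scaled TPM at E, 28.3, 41.1 and 41.8 at V, and 200, 204 and 218 at M. The log2 change was 2.91 for V against E (SE 0.19, limma adjusted p = 8.37e-16) and 2.47 for M against V (SE 0.19, adjusted p = 1.16e-14), and no libraries of the 3 stages overlapped.

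In the zones that chose it, LOC100252362 began at the opposite end. It had 246, 289 and 334 scaled TPM in E-XG, 35.1, 33.4 and 45.8 in V-XG, and 116, 134 and 109 in M-XG. In CC it had 274, 305 and 346 at E, 59.8, 50.3 and 57.0 at V, and 147, 148 and 162 at M. Its lowest E library outside HSB was at 159 in E-XLS, above every E-HSB library. The V and M levels of HSB lay much nearer to those of the other zones than its E level did.

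Other genes that climbed at both steps in HSB were weakly expressed at E there. LOC100263313 had 0.282, 0.267 and 0.228 scaled TPM in E-HSB, 2.60, 3.78 and 4.31 in V-HSB, and 10.5, 9.76 and 10.2 in M-HSB, against 5.15, 5.98 and 5.53 in E-XG. LOC100852418 had 1.33, 1.04 and 1.93 in E-HSB, 2.18, 5.68 and 7.66 in V-HSB, and 18.84, 17.95 and 17.23 in M-HSB. The change of V against E was 1.84 for LOC100263313 (SE 0.26, limma adjusted p = 6.03e-07) and 1.24 for LOC100852418 (SE 0.35, adjusted p = 0.00682), the second of which was 0.94 and no longer called without V-HSB replicate 3. The change of M against V in LOC100263313 was 1.31 (SE 0.26, adjusted p = 3.61e-05), and 0.86 with the TPM as deposited.

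LOC100249271 and LOC100244918 belong to the set only through ZHYS or HJZ together with XG, and in the other zones their mean at V was above that at E. LOC100249271 had 2.43, 2.93 and 2.15 scaled TPM in E-CC, 36.4, 38.0 and 32.5 in V-CC, and 43.9, 48.7 and 51.2 in M-CC, against 9.11, 12.5 and 15.6 in E-XG, 3.85, 5.58 and 6.12 in V-XG, and 50.5, 52.2 and 61.5 in M-XG. In HSB it had 5.91, 7.79 and 8.18 at E, 15.9, 23.3 and 20.7 at V, and 76.1, 104 and 77.1 at M, with a change of V against E of 1.33 (SE 0.36, limma adjusted p = 0.00413). It was one of the genes with the least regular pattern, with a mean dip over the 5 zones of -0.91.

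LOC100244918 had 9.90, 9.57 and 7.76 scaled TPM in E-HSB, 25.4, 30.5 and 57.7 in V-HSB, and 405, 594 and 448 in M-HSB. Its change of V against E was 1.86 (SE 0.60, limma adjusted p = 0.0185) and its change of M against V was 3.71 (SE 0.60, adjusted p = 1.18e-06). The call of V against E was lost without V-HSB replicate 3 (adjusted p = 0.121) or without E-HSB replicate 3 (adjusted p = 0.0634). In XG it had 6.35, 7.69 and 37.9 at E, 6.39, 6.42 and 2.54 at V, and 159, 157 and 206 at M, so a single E-XG library carried most of the difference between E and V. The same held in HJZ, with 7.41, 36.4 and 3.87 at E, against 4.20, 4.61 and 5.26 at V, so the gene entered the set on 1 high E library in each of its zones. The protein-coding gene next to it in RefSeq order, LOC100243308, is also one of the 70, with no protein-coding gene between them, and met the limit in ZHYS and XG in place of HJZ and XG.

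The genes that fell late in HSB included some that were high there at both earlier stages. LOC100242355 had 111, 130 and 116 scaled TPM in E-HSB, 82.3, 73.2 and 101 in V-HSB, and 3.35, 2.81 and 2.26 in M-HSB. In the other zones no library exceeded 15.3, and in XG it had 3.60, 4.29 and 4.48 at E, 1.05, 0.897 and 1.12 at V, and 5.64, 6.91 and 5.30 at M. The change of M against V in HSB was -4.50 (SE 0.24, limma adjusted p = 3.06e-19), the largest of the 70 genes, and that of V against E was -0.48 (adjusted p = 0.138). The gene was among those singled out after the values had been seen.

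LOC104877427, the member called lower at V than at E in HSB, fell at both steps. It had 49.1, 50.3 and 42.2 scaled TPM in E-HSB, 23.5, 24.2 and 13.9 in V-HSB, and 0.233, 0.479 and 0.474 in M-HSB. The change of V against E was -1.20 (SE 0.24, limma adjusted p = 1.83e-04), and without V-HSB replicate 3 it was -0.95 and no longer called. The change of M against V was -3.91 (SE 0.24, adjusted p = 3.45e-17).

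Late falls of similar size were seen in LOC100249210, LOC100243647 and LOC100252634. LOC100249210 had 39.7, 31.8 and 26.5 scaled TPM in V-HSB, against 33.7, 41.7 and 37.7 in E-HSB, and 0.998, 0.901 and 2.67 in M-HSB. LOC100243647 had 49.3, 44.1 and 45.5 in V-HSB, against 37.7, 62.3 and 52.5 in E-HSB, and 2.16, 2.71 and 2.52 in M-HSB. LOC100252634 had 135, 117 and 114 in V-HSB, against 126, 143 and 140 in E-HSB, and 8.85, 11.3 and 9.95 in M-HSB. For all 3 genes V overlapped E and M lay far below, with changes of M against V of -3.79, -3.77 and -3.49 (limma adjusted p = 3.34e-10, 5.22e-20 and 2.45e-19).

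The most abundant members other than SWEET15 and LOC100252362 did not dip in HSB either. LOC100263311 had 401, 367 and 346 scaled TPM in E-HSB, 374, 321 and 286 in V-HSB, and 132, 116 and 125 in M-HSB, a change of M against V of -1.38 (SE 0.14, limma adjusted p = 6.24e-11). In ZHYS the same gene had 32.3, 27.8 and 35.4 at V, against 231, 201 and 265 at E. LOC100267971 and LOC100250644 had replicates that differed many times over within a group, such as 7.44, 300 and 96.9 for LOC100267971 in V-ZHYS and 0.589, 12.04 and 74.7 for LOC100250644 in V-ZHYS, so their levels at V are known only roughly.

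A second test left each of the 5 zones out of the choice in turn. Genes that met the limit in at least 2 of the other 4 zones were counted in the zone left out, and all of these genes are members. The median mean TPM was 16.4 over the members and 4.11 over all genes tested, and genes near 0 can hardly be called. The shares of all genes given here are thus not matched to the members for level. In ZHYS, CC and XG a part of the genes counted was called at both steps. Of 27 such genes for ZHYS, 21 were called lower at V than at E (11.7% of all genes), 11 higher at M than at V (3.81%) and 9 both (1.23%). Of 33 for XG, 24 were called lower at V than at E (9.21%), 10 higher at M than at V (6.36%) and 9 both (1.06%). Of 44 for CC, 22 were called lower at V than at E (9.75%), 16 higher at M than at V (1.16%) and 9 both (0.187%). The count at both steps in CC was 16 with the TPM as deposited and 14 with a pseudocount of 0.1, and in ZHYS the last setting gave 18 higher at M than at V and 16 both.

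In HJZ and XLS the first step was called in many of the genes and the second in fewer. Of 57 genes for HJZ, 29 were called lower at V than at E (11.9% of all genes), 7 higher at M than at V (0.97%) and 2 both (0.134%). With the TPM as deposited the counts for HJZ were 18, 14 and 4, so the gap between the steps there depended on the scaling. Of 69 for XLS, 30 were called lower at V than at E (10.1%), 7 higher at M than at V (0.345%) and 2 both (0.0122%). Without V-XLS replicate 2 the counts for XLS were 17, 0 and 0, so every call at the second step there was lost with that library. They were 36, 14 and 6 without V-XLS replicate 1, and 34, 15 and 8 without V-XLS replicate 3. The median dip of the genes in the zone left out was 0.81 in ZHYS, 0.38 in CC, 0.34 in XG, 0.12 in XLS and 0.01 in HJZ, all above the medians of all genes, which lay between -0.13 and -0.09. V was the lowest stage in 85.2% of them in ZHYS, 81.8% in XG, 68.2% in CC, 58.0% in XLS and 52.6% in HJZ, against 20.9% to 28.1% of all genes. The zones share no libraries, but all were fitted with 1 estimate of the spread.

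Berry ripening genes served as a check of the stages in HSB, and all counts in this paragraph are for HSB. Of all genes, 2.99% were called there higher at V than at E, 8.48% higher at M than at V and 12.7% lower. Calls of the listed genes in the other zones are not given here. Of 11 ripening genes found by symbol, MRIP1 and 10 grape ripening-induced protein (GRIP) genes, none of them a member, 7 were called higher at V than at E in HSB and 8 higher at M than at V, with 1 lower. Of 14 MYB transcription factor genes, 2 were called higher at V than at E, 3 higher at M than at V and 4 lower, and no member was among them. Of the 3 sugar and water transporter genes found by name, SWEET15, TIP1;1 and PIP2;1, only TIP1;1, a vacuolar aquaporin, was called, lower at M than at V. Neither of 2 WRKY genes was called, and 1 of 2 defence genes was called higher at M than at V. The lists of seed and of skin genes matched no symbol, so the purity of the flesh could not be checked by them.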

How the data were processed

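Total RNA of berry flesh (15 berries per replicate) was sequenced as mRNA libraries on an Illumina HiSeq-2000. Clean reads were mapped with HISAT2 and counted per gene with featureCounts by the authors, with the Ensembl Plants annotation of V. vinifera cited as the reference. Tool versions and the assembly name are not given in the sources used here. The deposited table holds TPM, computed by the authors from these counts, for 25133 genes in 54 libraries. TPM keeps no sequencing depth, so no counting error could be given, and reads shared between near-identical genes could not be told apart.

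Here each library was divided by its median-of-ratios factor over 16546 genes above 0 everywhere (group means 0.69 to 1.44), and log2(value + 1) was taken. Genes were tested with limma 3.58.1 (trend) in R 4.3.3, with 18 group means, 36 residual degrees of freedom and Benjamini-Hochberg adjustment over the 24648 genes above 0 in at least 1 library. The test was checked on simulated data. No batch is labelled. The scaling and the adjusted p replace the count test of the study, which needs counts.

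The 70 genes and the gene lists were chosen with earlier results of these data known. Genes are named by rule: the 8 deepest mean dips, genes past the limit in all 5 zones, genes called at both steps in HSB as a dip (none), the 5 largest called rises of V against E in HSB, the 5 highest mean TPM, and those nearest the limit. Genes with a RefSeq synonym and the largest late changes in HSB were added after their values were seen. LOC100243647, LOC100252634, LOC100244929 and LOC100243308 are described outside these rules. They are not among the 22 named genes whose alternative values were compared. Gene lists were matched on RefSeq symbols and synonyms (ASM3070453v1, 23256 identifiers found), because no descriptions were at hand. Of 21 lists, 16 matched no gene. Promoter motifs and sequences were not analysed here. Replicate numbers do not pair libraries: over 54 same-numbered pairs, 6 deviated together at r above 0.1, and the range was -0.40 to 0.28.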

Additional observations from a re-analysis of the deposited data

Results flagged for a closer look

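In 3 of the named genes every HSB library moved one way and every library of the other 5 zones moved the opposite way. LOC100252362 was chosen by its dip in CC and XG, LOC100256811 in ZHYS, CC, XG and XLS, and LOC100258773 in ZHYS and CC. In those zones the choice used that movement, so the difference was not tested. LOC100252362 was higher at V than at E in HSB by 2.91 on the log2 scale and lower in HJZ, ZHYS, CC, XG and XLS. LOC100256811 was lower at M than at V in HSB, by a log2 change of -0.86, and higher in the other zones. LOC100258773 (RAMOSA3) was lower at M than at V in HSB, by a log2 change of -1.70, and higher in the other zones.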

How the results depend on the processing

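The number of genes that met the rule was 324 with a pseudocount of 0.1 (all 70 among them), 106 with the TPM as deposited (67 shared), 54 after quantile normalization (all shared), 7 with a limit of 1.5, 10 with at least 3 zones, and 65 to 79 when each library was left out in turn. With the TPM as deposited, 7 genes were called higher at M than at V in HSB, the median change of V against E was -0.15 and that of M against V -0.87, 18 genes were called lower at V than at E in HJZ as the zone left out, 14 higher at M than at V and 4 at both steps, and 16 at both steps in CC. After quantile normalization the medians in HSB were -0.080 and -0.26. With a pseudocount of 0.1, 18 genes in ZHYS were called higher at M than at V, 16 at both steps, and 14 at both steps in CC. The cause of these shifts was not tested.

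Leaving out each library in turn gave, in HSB, 0 to 1 genes lower at V than at E (0 without V-HSB replicate 3), 3 to 7 higher (3 without V-HSB replicate 3), 9 to 12 higher at M than at V, 21 to 23 lower, 36 to 40 called between M and E, 0 to 0 at both steps, and medians of -0.04 to 0.02 and -0.49 to -0.34. In zones left out of the choice, the counts lower at V than at E, higher at M than at V and both were 25 to 29, 5 to 7 and 1 to 3 in HJZ (1 without E-HJZ replicate 2), 20 to 22, 10 to 14 and 8 to 11 in ZHYS, 21 to 22, 16 to 18 and 9 to 11 in CC, 22 to 25, 9 to 10 and 6 to 9 in XG (6 without V-XG replicate 2), and 17 to 36, 0 to 15 and 0 to 8 in XLS, with the lowest values without V-XLS replicate 2 and the highest without V-XLS replicate 1 or 3. The HSB counts were the same without V-XLS replicate 2, chosen after seeing the data.

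With the replicate number as a block, 12 genes were called higher at M than at V in HSB, 1 lower at V than at E and 0 at both steps, and the block changed no other HSB count. Of 704 alternative values of 22 named genes in HSB, 686 kept their call, 12 lost it and 6 gained it, and 0 called changes were reversed. An uncalled value that changed sign was counted as kept. An example was V against E of LOC100242847, which ran from -0.30 to 0.07 over the libraries left out in turn. Promoter motifs were not run.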
